A study of Homo sapiens with 6 samples.

Results

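Ribosome biogenesis factors are the nucleolar proteins that fold, modify, cut and package the precursor of ribosomal RNA on its way to finished 40S and 60S subunits. A fixed list of 45 human gene symbols was looked up by name in the deposited expression table of SaOS-2 cells with inducible p21. The list was chosen with earlier results of these data known. All 45 symbols were found among the 23228 gene names of the table, and all 45 had a mean normalized count of at least 10, the minimum for a gene to be tested. The list was split by textbook role into 3 proteins of box C/D ribonucleoproteins, 4 of box H/ACA ribonucleoproteins, 3 abundant nucleolar proteins, 14 factors of the small subunit processome, 6 factors of 40S maturation and 15 factors of 60S assembly.

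SaOS-2 is a human osteosarcoma cell line that the study describes as null for RB and p53. The cells carried a Tet-inducible p21 vector in both groups. The p21 OFF group was 3 libraries of untreated cells, and the p21 ON group was 3 libraries of cells given doxycycline at 1 μg/ml for 24 h, as the sample labels state. Every p21 ON library had both the drug and the induced gene, and cells with the drug alone were not analysed here, so doxycycline and p21 cannot be told apart. Nothing in the labels says whether the line is 1 clone or whether the replicates came from separate cultures, so p-values measure the spread between these libraries, which may be technical. In bulk RNA a lower share of dividing cells and less RNA of a gene in each cell cannot be told apart.

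The libraries held 12795490 to 21975045 reads on genes. CDKN1A, which encodes p21, had 1187 to 1355 normalized counts in p21 OFF libraries and 40470.4 to 46739 in p21 ON libraries, so the labels and the induced gene go together. Of 8 osteoblast markers, 7 reached 10 normalized counts, with ALPL at 35363 to 38901 and COL1A2 at 1.56 to 4.87. The summed osteoblast markers ranged from 73274 to 76456 in p21 OFF and from 74489 to 77785 in p21 ON libraries. The epithelial genes EPCAM and KRT18 were present at medians of 319 and 2187, while CDH1 was at most 3.91. The 3 endothelial markers summed to 62.8 to 69.1 in p21 OFF and to 73.1 to 104.5 in p21 ON libraries, CDH5 was at most 1.26, and the part of these markers in the results below was not tested.

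Ribosome production is one of the largest outlays of a growing cell. RNA polymerase I makes a long precursor in the nucleolus, small nucleolar RNAs guide its methylation and pseudouridylation, a small subunit processome built around the U3 RNA cuts out the 18S part, and a separate set of factors builds the large subunit around the remaining ribosomal RNAs before export. Many of the genes are transcribed in step with growth signals and MYC, and an interrupted assembly line is known to stabilise p53.

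Many of these factors were modestly lower in p21 ON cells. Of the 45 factors, 20 fell and none rose by limma on log2(normalized count + 1) with a Benjamini-Hochberg adjusted p-value below 0.05. At an unadjusted p below 0.05 the numbers were 27 lower and 1 higher, and edgeR, DESeq2 and limma-voom on the recovered reads also called none higher. Over all 13255 genes tested, 12.7% were called lower and 10.5% higher, against 44.4% and 0% of the 45 factors. Because the list was chosen with earlier results known, these shares are a description and not a test of the list. The median log2 fold change of the 45 was -0.20 (quartiles -0.26 and -0.11), while the median of all genes tested was 0.0056. The 20 called factors had log2 fold changes from -0.57 to -0.16, which as a change of the mean normalized count is -32.9% to -10.7%. For 28 factors every p21 ON library lay below every p21 OFF library, and for none did every p21 ON library lie above. Among all genes tested, 21.3% had p21 ON wholly below and 19.1% wholly above. In all, 41 of the 45 had a negative log2 fold change. For a single gene the exact two-sided permutation test of 3 libraries against 3 cannot go below p = 0.1, so the calls rest on the limma fit across all genes.

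**Figure D1:**
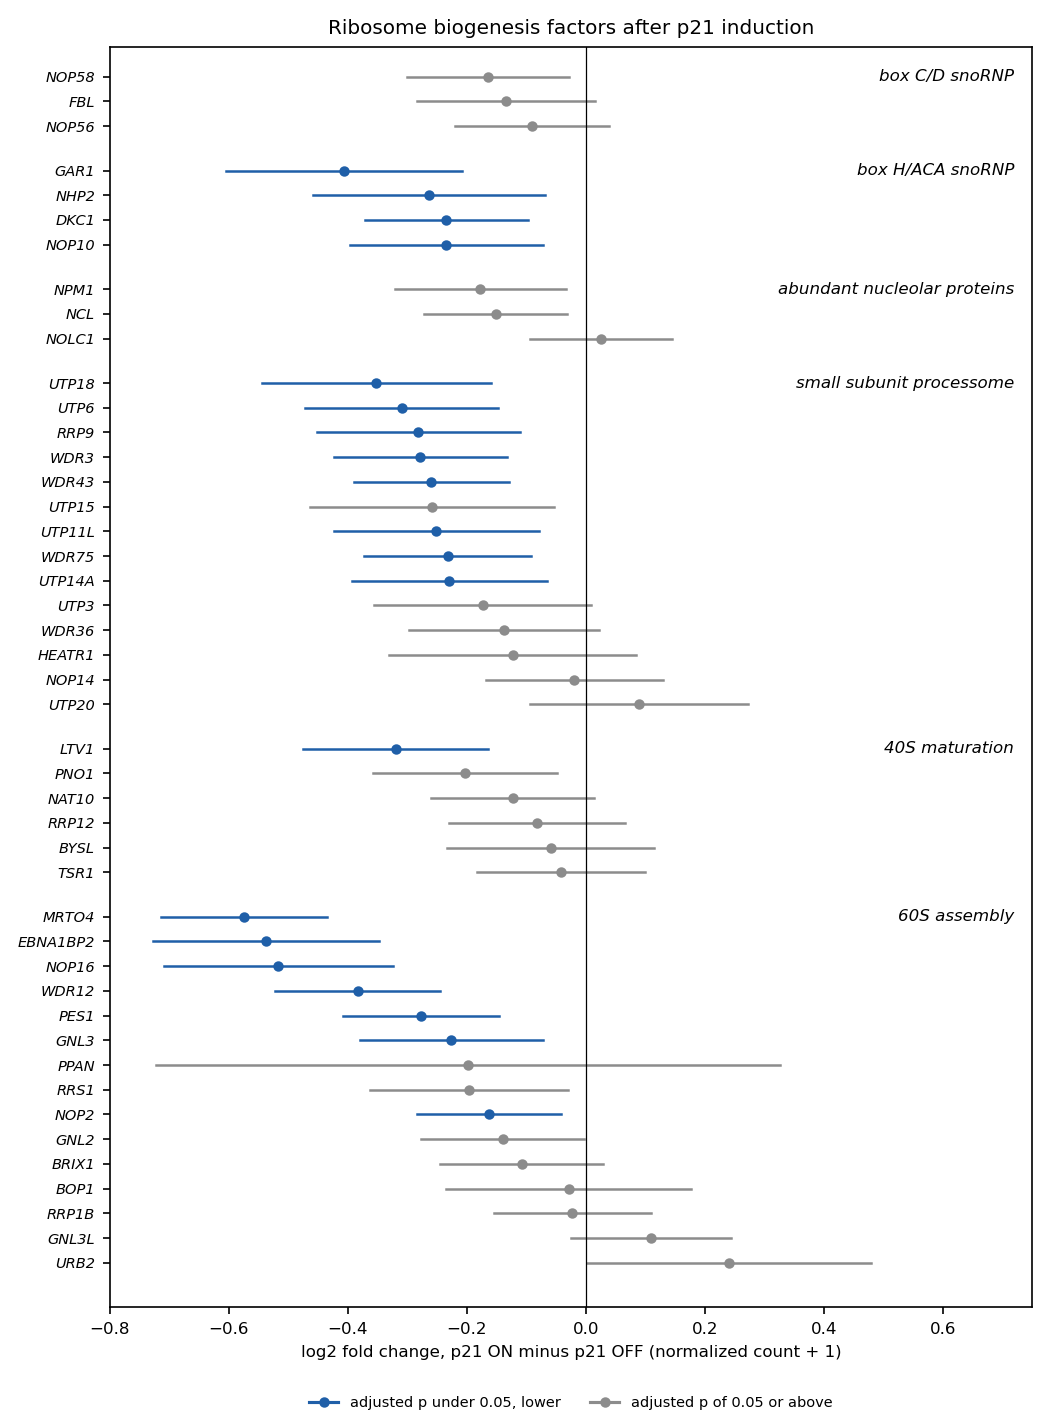
Log2 fold change (p21 ON minus p21 OFF, on log2(normalized count + 1)) of the 45 ribosome biogenesis factors with 95% confidence intervals from limma, grouped by role, 3 libraries per group. Blue marks the 20 factors called lower. Most points lie left of 0, the 4 box H/ACA proteins are all blue, and MRTO4, EBNA1BP2 and NOP16 lie farthest left.

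The count of calls depended on single libraries. Without p21 ON replicate 1 it was 7, and without p21 ON replicate 3 it was 9, while the median log2 fold change was -0.18 and -0.19 in these fits. Among all genes tested, 6.72% were called lower without p21 ON replicate 1 and 8.13% without p21 ON replicate 3, against 12.7% with all libraries. The 7 factors called whichever library was left out were MRTO4, EBNA1BP2, NOP16, WDR12, GAR1, PES1 and WDR43. Without p21 ON replicate 1 the calls of DKC1, NHP2, NOP10, WDR75, UTP6, UTP18, WDR3, RRP9, UTP11L, UTP14A, LTV1, NOP2 and GNL3 were lost, and without p21 ON replicate 3 all of these but UTP6 and LTV1. Scaling by library size alone gave 13 calls, with the median of all genes at 0.05, and WDR75, UTP11L, UTP14A, NHP2, NOP10, NOP2 and GNL3 lost theirs.

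Transcript length moved with these results. Across 12563 tested genes with a known length of the canonical transcript, Spearman's correlation between length and log2 fold change was 0.36, and across the 44 factors with a length it was 0.40. These are correlations across genes that share the same 6 libraries, and genes are not independent replicates. The deviation of a library from the gene mean correlated with length at -0.51 in p21 OFF replicate 1 and -0.14 in p21 OFF replicate 2, and at 0.02 in p21 OFF replicate 3. The same correlation was 0.40, 0.25 and 0.17 in the p21 ON replicates 1, 2 and 3. Relative to the mean of all 6 libraries, short transcripts were thus high in p21 OFF replicate 1 and low in all p21 ON libraries. Because that mean includes every library, these correlations are not independent of each other. Of 16 factors with transcripts under 2000 bp, 9 were called lower, against 25.7% of all genes of that length. Of 16 factors from 2000 to 4000 bp, 8 were called lower, against 13.1% of all such genes. Of 12 factors of 4000 bp or more, 3 were called lower, against 6.12% of all such genes. The median log2 fold change was -0.23, -0.20 and -0.10 in these 3 classes of factors, and -0.13, -0.02 and 0.08 over all genes of the same lengths. When a trend with length was taken out of each library, an alternative chosen after seeing the data, 17 of the 44 factors were called lower, 13 of them among the original 20, with a median of -0.15. Of all 12563 genes in that fit 1627 (12.95%) were called lower and 1326 higher. The calls lost in that fit were those of NHP2, NOP10, RRP9, UTP11L, UTP14A, NOP2 and GNL3, and HEATR1, NCL, UTP15 and WDR36 were called in it. Without p21 OFF replicate 1, 17 of the 45 were called lower, and NHP2, NOP10, UTP11L, UTP14A and GNL3 were not among them. Of all genes tested 12.2% were called lower without that library.

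**Figure D2:**
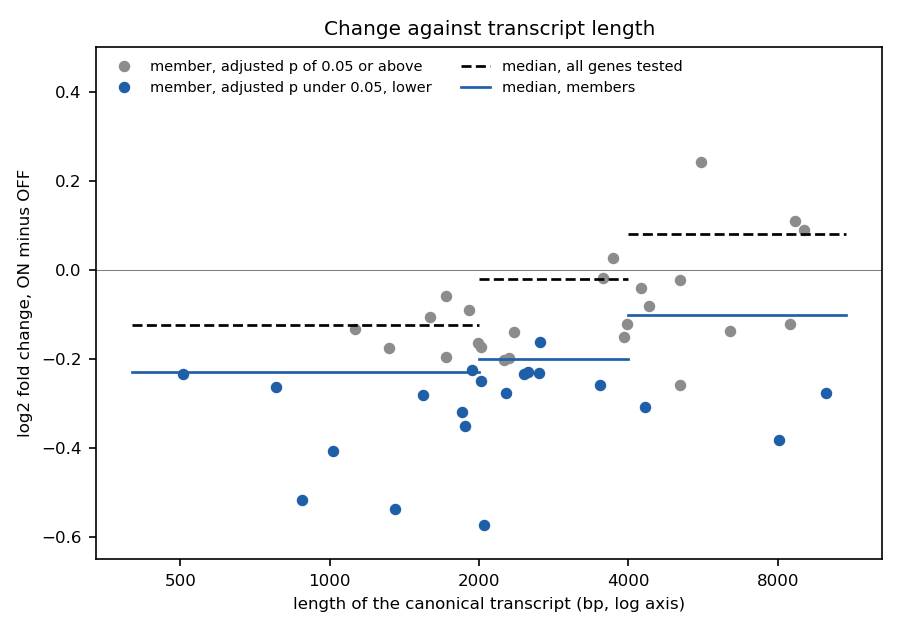
Log2 fold change (p21 ON minus p21 OFF) of the 44 factors with a known length against the length of the canonical transcript in bp (log axis), with medians per length class for the factors (blue lines) and for all tested genes (dashed lines). The blue medians of -0.23, -0.20 and -0.10 lie below the dashed medians of -0.13, -0.02 and 0.08.

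The largest falls were among the factors of 60S assembly. Of these 7 of 15 (46.7%) were called lower and none higher, against 12.7% and 10.5% of all genes tested. At an unadjusted p below 0.05 by limma 9 were lower and 1 higher, and the median log2 fold change was -0.20. MRTO4, a relative of the stalk protein P0 that holds its place on the immature large subunit, is a gene of 8 exons on the plus strand (GRCh37 chromosome 1, 19578299 to 19586622). Its normalized counts were 1252, 1197 and 1152 in p21 OFF and 785, 843 and 789.7 in p21 ON libraries. The groups were far apart relative to their spread. MRTO4 differed by -0.57 on the log2 scale (SE 0.07, limma adjusted p = 5.66e-06), the largest fall among the 45.

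EBNA1BP2, the human counterpart of a yeast 60S assembly factor that works with Rrs1, is a gene of 9 exons on the minus strand (GRCh37 chromosome 1, 43629846 to 43736607), where it overlaps CFAP57 on the other strand. It had 739.7, 632 and 591 normalized counts in p21 OFF and 453, 486 and 409.6 in p21 ON libraries. All p21 OFF values lay above all p21 ON values, with p21 OFF replicate 1 the highest. The difference on the log2 scale was -0.54 (SE 0.09, limma adjusted p = 0.000395). RRS1, its partner, had 399 to 409 normalized counts in p21 OFF and 336 to 362 in p21 ON libraries. These ranges did not overlap, but the log2 fold change of -0.20 missed the threshold (95% confidence interval -0.36 to -0.03, limma adjusted p = 0.0816).

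NOP16, a nucleolar protein of early 60S particles, is a gene of 5 exons on the minus strand (GRCh37 chromosome 5, 175810949 to 175815928). It had 602, 607 and 501 normalized counts in p21 OFF and 379.5, 439.9 and 373 in p21 ON libraries. The groups were apart, and p21 OFF replicate 3 was the lowest of its group. On the log2 scale NOP16 differed by -0.52 (SE 0.09, limma adjusted p = 0.000640). Its exons overlap those of ARL10 and HIGD2A on the other strand, and the strand setting of the read counting is not given in the sources used here. Of the 45 factors, 21 have exons that overlap another gene and 11 of these (52.4%) were called lower. Of the 24 without such an overlap 9 (37.5%) were called lower, against 12.7% of all genes tested. The median log2 fold changes were -0.23 with an overlap and -0.14 without, and this difference was not tested.

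WDR12, PES1 and BOP1 form the PeBoW complex, which is needed to process the precursor of the large subunit RNA. WDR12 had 1003, 962 and 947 normalized counts in p21 OFF and 745, 760.3 and 726 in p21 ON libraries, which is a difference of -0.38 on the log2 scale (SE 0.07, limma adjusted p = 0.000474). PES1 had 1950.4, 1905 and 1803 in p21 OFF and 1512, 1527 and 1629.7 in p21 ON libraries, which is -0.28 on the log2 scale (SE 0.06, limma adjusted p = 0.00413). Both genes fell without overlap between the groups. BOP1 was not called, with 212 to 237 normalized counts in p21 OFF and 205 to 239 in p21 ON libraries, so its groups overlapped. Its interval from -0.24 to 0.18 includes 0 and does not show that it stayed level.

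GNL3, or nucleostemin, a GTP-binding protein of the nucleolus, fell by 0.23 on the log2 scale (limma adjusted p = 0.0329). NOP2, which methylates a cytosine of the large subunit RNA, fell by 0.16 (limma adjusted p = 0.0483). Neither kept its call in all alternatives, since GNL3 lost it in 5 of the 6 fits without 1 library and NOP2 in 5 of 6. NOP2 also missed the threshold with edgeR (adjusted p = 0.0531) and DESeq2 (adjusted p = 0.0574). URB2, which takes part in early processing of the large subunit precursor, had the most positive value of the 45. Its log2 fold change was 0.24, with an interval from 0.0020 to 0.48 and a limma adjusted p = 0.133. It had 169.5, 231 and 208 normalized counts in p21 OFF and 222, 256 and 238 in p21 ON libraries, which overlapped. PPAN had a mean of 19.9 normalized counts, the lowest level of the 45, and a log2 fold change of -0.20 with a wide interval from -0.72 to 0.33. The exons of PPAN are shared with those of the read-through gene PPAN-P2RY11, which was at 0 in all 6 libraries, so the value of PPAN is uncertain.

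**Figure D3:**
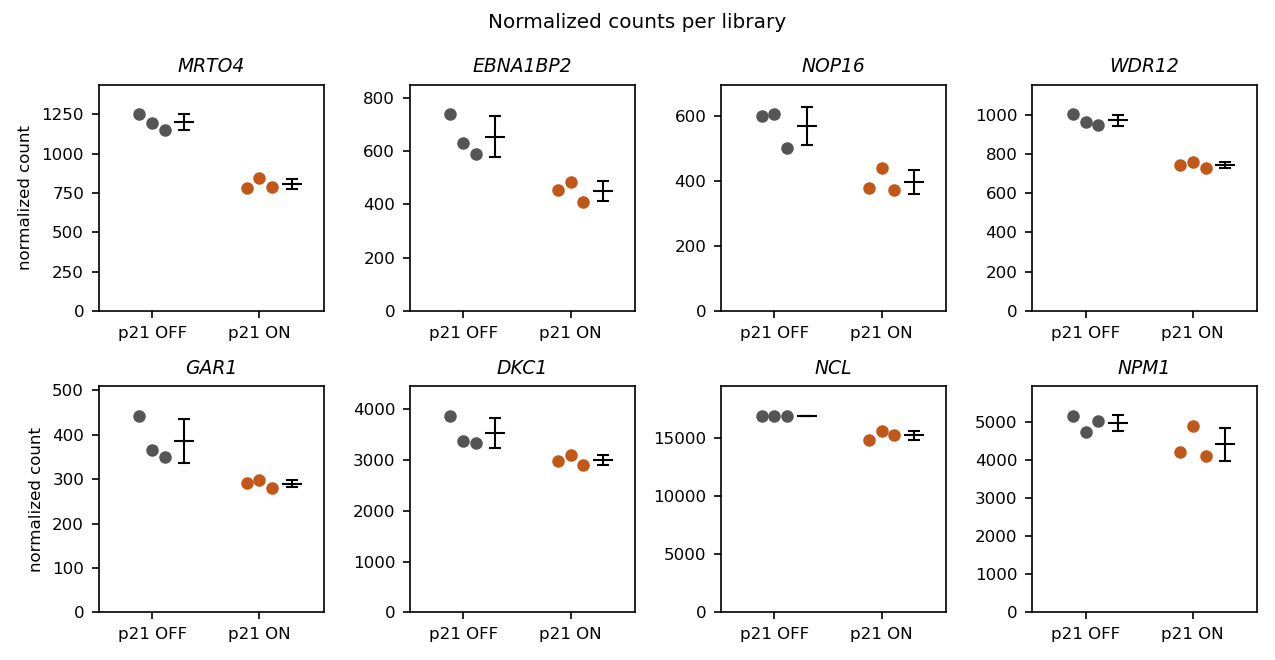
Normalized counts of 8 ribosome biogenesis factors in each library (points), with the mean and SD beside them, n = 3 per group and each axis starting at 0. The groups do not overlap in the first 7 panels, while for NPM1 the p21 ON replicate at 4909 lies within the p21 OFF range.

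The box H/ACA ribonucleoproteins, which turn uridines of ribosomal RNA into pseudouridine and also stabilise telomerase RNA, had 4 of 4 proteins called lower by limma, but 3 of 4 by edgeR, DESeq2 and limma-voom, which did not call NHP2. Of all genes tested 12.7% were called lower by limma, 12.4% by edgeR, 10.6% by DESeq2 and 12.1% by limma-voom. The catalytic subunit DKC1, or dyskerin, had 3868, 3373 and 3337 normalized counts in p21 OFF and 2980.2, 3091 and 2903 in p21 ON libraries. All p21 ON values were lower, and p21 OFF replicate 1 stood above the other p21 OFF libraries. DKC1 differed by -0.23 on the log2 scale (SE 0.07, limma adjusted p = 0.0154). GAR1, a partner of the catalytic subunit, had 443, 366 and 350.4 normalized counts in p21 OFF and 291, 297 and 281 in p21 ON libraries. GAR1 differed by -0.41 on the log2 scale (SE 0.09, limma adjusted p = 0.00530). NHP2 fell by 0.26 (limma adjusted p = 0.0488) and NOP10 by 0.23 (limma adjusted p = 0.0354), with p21 OFF replicate 1 again the highest library of both. NHP2 missed the threshold with edgeR (adjusted p = 0.0508), limma-voom (adjusted p = 0.0634) and DESeq2 (adjusted p = 0.0706), and with library-size scaling the limma adjusted p was 0.0971 for NHP2 and 0.0825 for NOP10. With the length trend taken out, DKC1 had a log2 fold change of -0.20 and GAR1 one of -0.25 and both were still called, whereas NHP2 came to -0.07 and NOP10 to 0.0076 and neither was called. NOP10 has the shortest transcript of the 44, at 507 bp.

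Box C/D ribonucleoproteins place methyl groups on the sugar of ribosomal RNA, with FBL, or fibrillarin, as the methyltransferase and NOP56 and NOP58 as its scaffold. None of the 3 was called by limma, edgeR, DESeq2 or limma-voom, and 1 was lower at an unadjusted p below 0.05 by limma. FBL had 2179, 1843 and 1809 normalized counts in p21 OFF and 1714, 1794 and 1787 in p21 ON libraries. The groups did not overlap, and the p21 OFF mean was drawn up by replicate 1. Its log2 fold change was -0.13 (95% confidence interval -0.28 to 0.02, limma adjusted p = 0.180), and with the length trend taken out it was 0.01. NOP58 had a log2 fold change of -0.16 (interval -0.30 to -0.03, limma adjusted p = 0.0734) and NOP56 one of -0.09 (interval -0.22 to 0.04, limma adjusted p = 0.304). The difference between the box C/D and the box H/ACA proteins was not tested.

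Of the abundant nucleolar proteins, none of 3 was called by limma, and 2 were lower at an unadjusted p below 0.05. NCL, or nucleolin, an RNA chaperone of the nucleolus, had the highest level of the 44 factors per length, at 4301 normalized counts per kilobase of transcript in p21 OFF cells. It had 16853, 16908 and 16868 normalized counts in p21 OFF and 14799.8, 15595 and 15204 in p21 ON libraries. The p21 OFF libraries were close to each other and all p21 ON libraries were lower. The log2 fold change was -0.15 (interval -0.27 to -0.03, limma adjusted p = 0.0634). It passed the threshold with edgeR (adjusted p = 0.0483), DESeq2 (adjusted p = 0.0376) and limma-voom (adjusted p = 0.0398). NPM1, or nucleophosmin, a chaperone and export factor of ribosomal particles, had 5174, 4745 and 5022 normalized counts in p21 OFF and 4228, 4909 and 4109.8 in p21 ON libraries. The p21 ON replicate 2 lay within the p21 OFF range. Its log2 fold change was -0.18 (interval -0.32 to -0.03, limma adjusted p = 0.0698), and reads of NPM1 may be shared with its processed pseudogenes. NOLC1, a partner of both kinds of ribonucleoprotein, had a log2 fold change of 0.03 (interval -0.09 to 0.14, limma adjusted p = 0.781).

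**Figure D4:**
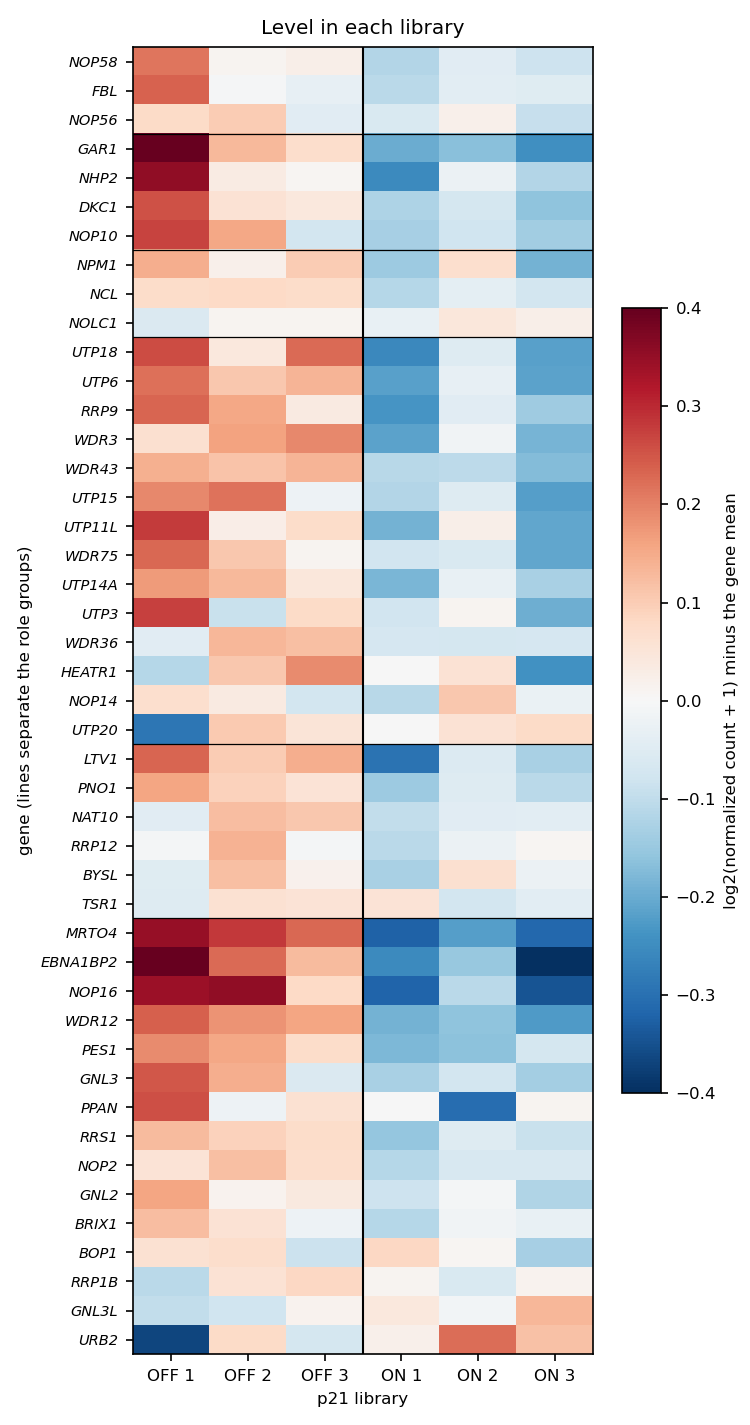
Deviation of each library from the gene mean, in log2(normalized count + 1), for the 45 factors (rows, ordered by role and then by log2 fold change) in the 3 p21 OFF and 3 p21 ON libraries. The median deviation over the factors is 0.16, 0.10 and 0.05 in p21 OFF and -0.12, -0.04 and -0.12 in p21 ON replicates, and p21 OFF replicate 1 holds the deepest red.

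The small subunit processome is the early particle in which the 18S part is folded and cut. Of its 14 factors 8 (57.1%) were called lower and none higher, against 12.7% and 10.5% of all genes tested. At an unadjusted p below 0.05 by limma 9 were lower and 0 higher, and the median log2 fold change was -0.24. In the UTP-A complex, which binds the growing precursor first, WDR43 fell by 0.26 (limma adjusted p = 0.00618) and WDR75 by 0.23 (limma adjusted p = 0.0183). WDR43 had 1276, 1251 and 1269.9 normalized counts in p21 OFF and 1071, 1076 and 1025 in p21 ON libraries, with little spread in either group. UTP15, of the same complex, had a log2 fold change of -0.26 with a limma adjusted p = 0.0638. HEATR1, the remaining member of that complex here, was not called.

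In the UTP-B complex, which joins next, UTP18 fell by 0.35 (limma adjusted p = 0.0106), UTP6 by 0.31 (limma adjusted p = 0.00804) and WDR3 by 0.28 (limma adjusted p = 0.00820). UTP18 had 398, 341 and 388 normalized counts in p21 OFF and 277, 320.4 and 285 in p21 ON libraries, and p21 ON replicate 2 was the highest of its group. WDR3, whose canonical transcript of 10004 bp is the longest of the 44, had 1332, 1424 and 1458 in p21 OFF and 1099, 1261 and 1119 in p21 ON libraries. WDR36, the remaining member of the complex here, had a log2 fold change of -0.14 (interval -0.30 to 0.02, limma adjusted p = 0.199). RRP9, the protein specific to the U3 particle, fell by 0.28 (limma adjusted p = 0.0180), UTP11L by 0.25 (limma adjusted p = 0.0350) and UTP14A, which works with an RNA helicase, by 0.23 (limma adjusted p = 0.0417). With the length trend taken out none of these 3 was called, at a limma adjusted p = 0.0752 for RRP9, 0.0633 for UTP11L and 0.0534 for UTP14A, and DESeq2 did not call UTP14A either (adjusted p = 0.0906). UTP14C, a retrocopy of UTP14A that may share its reads, had a difference of 0.09 on the log2 scale (limma adjusted p = 0.428). UTP3 had a log2 fold change of -0.17 (interval -0.36 to 0.0095, limma adjusted p = 0.157), and UTP20 and NOP14 were not called.

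The factors of 40S maturation act on the particle after the first cuts and during export. Here 1 of 6 (16.7%) was called lower and none higher, against 12.7% and 10.5% of all genes tested. The share called lower was thus near that of all genes. At an unadjusted p below 0.05 by limma 2 were lower and 0 higher, and the median log2 fold change was -0.10. LTV1, which leaves the particle late in the cytoplasm, had 1078, 984 and 1013 normalized counts in p21 OFF and 747, 882 and 838 in p21 ON libraries. The lowest p21 OFF value lay above the highest p21 ON value, and LTV1 differed by -0.32 on the log2 scale (SE 0.07, limma adjusted p = 0.00507). PNO1, the partner of the nuclease that makes the final cut of 18S RNA, had 557 to 599 normalized counts in p21 OFF and 485 to 518 in p21 ON libraries. Its groups were apart, with a log2 fold change of -0.20 (interval -0.36 to -0.05, limma adjusted p = 0.0535). NAT10, which acetylates 18S RNA, had a difference of -0.12 on the log2 scale (limma adjusted p = 0.182), and RRP12 one of -0.08 (limma adjusted p = 0.427). Over the whole list, 10 factors are not given singly with a log2 fold change in these role groups. They are HEATR1, UTP20, NOP14, BYSL, TSR1, BOP1, RRP1B, GNL2, GNL3L and BRIX1. None was called, their log2 fold changes ranged from -0.14 to 0.11, and 8 of the 10 were negative.

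Levels can be compared between genes only per length. In p21 OFF cells NCL was followed by NPM1 at 3773 and NOP10 at 2881 normalized counts per kilobase, and then by FBL at 1728, NOP56 at 1698 and NOP58 at 1514. FBL and NOP56 stood next to each other in this order and did not differ beyond their spread, with SDs of 204 and 173 normalized counts before division by length. At the low end stood URB2 at 36.3 and PPAN at 9.28, which lies below the rest of the 44. MRTO4 stood at 586 in p21 OFF and 393 in p21 ON cells. Such values set a read count against the annotated canonical transcript, which may differ from the transcripts these cells use.

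Other genes of the pathway, outside the 45, were taken from a list of 84, of which 81 were found in the table and tested. Of these 34 (42.0%) were called lower and 2 (2.47%) higher, against 12.7% and 10.5% of all genes tested. The median log2 fold change of the 81 was -0.16. The largest falls called were those of NGDN at -0.45 (limma adjusted p = 0.00148), EMG1, a methyltransferase of 18S RNA, at -0.43 (limma adjusted p = 0.00218), and MKI67IP at -0.41 (limma adjusted p = 0.00826). MDN1, the giant ATPase that strips factors from the 60S particle, rose by 0.36 (limma adjusted p = 0.0152), and EFTUD1, a GTPase of the last cytoplasmic step of 60S maturation, rose by 0.25 (limma adjusted p = 0.0111). With the length trend taken out 34 were called lower and none higher, MDN1 had a log2 fold change of 0.09, and EFTUD1 had no length and was not tested. In that fit 12.95% of all genes were called lower. MKI67IP was not called without p21 ON replicate 3 (log2 fold change -0.28, limma adjusted p = 0.0626). Without p21 ON replicate 1 the numbers were 16 lower and 0 higher, and without p21 ON replicate 3 they were 15 and 1. In these fits 6.72% and 8.13% of all genes tested were called lower.

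The products and the polymerase of the pathway are given for comparison only. Of 75 cytosolic ribosomal protein genes tested, 43 (57.3%) were called lower and none higher, against 12.7% and 10.5% of all genes tested. At an unadjusted p below 0.05 by limma 59 were lower and 0 higher, and the median log2 fold change was -0.24. The 3 largest called differences were -0.68 for RPS3A, -0.47 for RPS27A and -0.45 for RPL39. RPS3A, with 25.7 to 55.5 normalized counts, lost its call without p21 OFF replicate 1 or 2 and without p21 ON replicate 1 or 3, RPL39 without p21 OFF replicate 1 and p21 ON replicate 1 or 3, and neither was called with the length trend taken out. Many of these genes have processed pseudogenes that may share their reads. Of 14 subunits and factors of RNA polymerase I, 2 (14.3%) were called lower and none higher, a share lower near the 12.7% of all genes. At an unadjusted p below 0.05 by limma 7 were lower and 1 higher, and the median log2 fold change was -0.16. The genes called were POLR1C at -0.38 and RRN3, the initiation factor of the polymerase, at -0.31, of which RRN3 was not called in the fits that left out p21 OFF replicate 2 and p21 ON replicate 3 in turn. Differences between these lists were not tested.

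**Figure D5:**
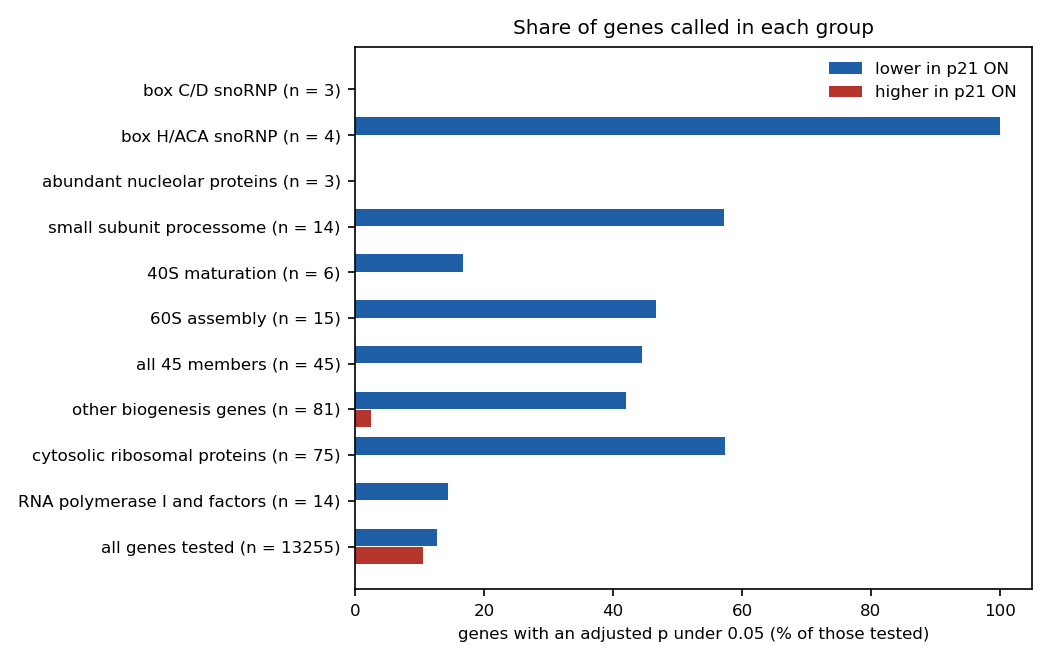
Share of tested genes with an adjusted p-value below 0.05 from limma, lower (blue) and higher (red) in p21 ON, for each role group, the 45 factors, 3 further lists and all 13255 genes tested. The 45 factors stand at 44.4% lower and 0% higher, beside 12.7% and 10.5% of all genes.

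Promoter sequences were read for the factors because most of them moved the same way. RefSeq promoter windows of GRCh38.p14 were matched by symbol for 38 of the 45, with UTP11L under its newer name UTP11, and the 250 bases before the start were searched on both strands. Some genes have more than 1 start and window, and a gene was counted as holding a motif when any of its windows did. The E-box CACGTG, the site of MYC and related proteins, was found in 6 of 38 factors (15.8%), against 9.73% of 15843 protein-coding genes. It was found in 4 of the 20 called factors and in 2 of the 18 others. The E2F-type strings TTTCCCGC, TTTGGCGC and TTTCGCGC were found in 2 of 38, against 3.90% of all, and the CHR-type strings TTTGAA and TTCGAA in 5 of 38, against 15.6%. The NRF1 motif was found in 2 of 38, DKC1 and UTP18, against 1.72%. Of the 20 called factors 1 held an E2F-type string, 3 a CHR-type string and 2 the NRF1 motif. Of the 18 others 1, 2 and 0 did. None of the strings contains another. With so few matches the shares are a description of the letters and no test was made. The windows of the 4 called factors with an E-box and that of MRTO4, the factor with the largest fall, which holds none of the strings, are shown 5′ to 3′ toward the start site, in lower case with the E-box in capitals. EBNA1BP2 has another window, at chr1:43172291-43172540 on the minus strand, which holds no E-box and a CHR-type match and is not shown. The positions are GRCh38.p14 and are not those of the GRCh37 gene positions given above.
EBNA1BP2 (chr1:43172571-43172820, minus strand): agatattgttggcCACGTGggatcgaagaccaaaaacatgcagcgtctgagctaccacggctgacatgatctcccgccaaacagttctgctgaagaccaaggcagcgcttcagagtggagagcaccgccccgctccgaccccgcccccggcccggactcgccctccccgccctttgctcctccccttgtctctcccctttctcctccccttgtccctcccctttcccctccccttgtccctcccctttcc
NOP10 (chr15:34343137-34343386, minus strand): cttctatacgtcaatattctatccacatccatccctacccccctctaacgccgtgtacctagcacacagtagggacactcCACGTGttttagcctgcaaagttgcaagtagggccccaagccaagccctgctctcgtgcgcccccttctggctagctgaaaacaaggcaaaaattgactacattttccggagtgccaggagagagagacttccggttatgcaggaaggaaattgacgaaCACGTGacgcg
UTP14A (chrX:129905914-129906163, plus strand): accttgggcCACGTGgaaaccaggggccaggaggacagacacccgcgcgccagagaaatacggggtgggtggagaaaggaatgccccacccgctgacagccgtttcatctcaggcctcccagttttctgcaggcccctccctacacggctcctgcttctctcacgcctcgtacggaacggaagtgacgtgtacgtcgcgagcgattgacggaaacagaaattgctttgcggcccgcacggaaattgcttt
UTP18 (chr17:51260296-51260545, plus strand): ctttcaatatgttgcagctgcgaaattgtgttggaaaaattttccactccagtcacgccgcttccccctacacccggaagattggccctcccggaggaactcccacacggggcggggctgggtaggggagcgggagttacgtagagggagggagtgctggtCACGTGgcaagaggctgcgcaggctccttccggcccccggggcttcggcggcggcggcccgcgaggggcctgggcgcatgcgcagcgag
MRTO4 (chr1:19251555-19251804, plus strand): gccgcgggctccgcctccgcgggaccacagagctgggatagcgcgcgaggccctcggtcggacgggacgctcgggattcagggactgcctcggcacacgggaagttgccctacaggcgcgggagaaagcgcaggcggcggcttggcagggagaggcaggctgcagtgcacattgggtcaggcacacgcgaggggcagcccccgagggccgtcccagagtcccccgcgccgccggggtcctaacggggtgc

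UTP18 holds its E-box 89 bases before the start, EBNA1BP2 at 237 before the farther upstream of its annotated starts and UTP14A at 241, and NOP10 holds 2, at 170 and 11. These 4 factors had log2 fold changes of -0.35, -0.54, -0.23 and -0.23, in the order UTP18, EBNA1BP2, UTP14A and NOP10. MRTO4, without a match, had one of -0.57. Of the 2 uncalled factors with an E-box, NAT10 holds it 15 bases before the start and had a log2 fold change of -0.12 (limma adjusted p = 0.182). UTP20 holds it 10 bases before the start and had a log2 fold change of 0.09 (limma adjusted p = 0.486).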

How the data were processed

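Stranded mRNA libraries were read single-end. The authors used STAR against hg19, HTSeq for reads per gene and DESeq2 for scaling. What was deposited is a table of normalized counts (a signal, never negative). Versions and the strand setting are not given in the sources used here. Every value was a whole multiple of 1 read per library within 0.01 reads, so reads were recovered for 100% of values (size factors 0.796 to 1.35). All sample columns were used. limma 3.58.1 in R 4.3.3 (lmFit, eBayes with a trend, pseudocount 1, no covariates) was fitted on 13255 genes whose mean reached 10, and p-values were adjusted over all of these by Benjamini-Hochberg. edgeR 4.0.16, DESeq2 1.42.0 and limma-voom on recovered reads, other scalings, filters, pseudocounts and thresholds, a replicate block and leaving out each library were alternatives. The fit was tested on simulated data with changes larger than that of any called factor and without a trend with length. That simulation does not cover changes of the size seen in the factors. Values are given for called factors, for NPM1, NCL, FBL, DKC1 and NOP56, for up to 3 uncalled factors per role with the largest difference, and for the 3 largest called differences each way of the other lists. BOP1's counts and the log2 fold change of UTP20, which holds an E-box, were added after they were seen. Positions and lengths come from GENCODE release 44 on GRCh37. The factors and lists were chosen with earlier results of these data known. With 3 libraries per group, standard errors were 0.06 to 0.11 (log2) for all factors but PPAN.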

Additional observations from a re-analysis of the deposited data

How the results depend on the processing

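The median log2 fold change of the 45 factors stayed between -0.22 and -0.15 under every alternative run, and 0 factors were called higher in any. The 20 factors called lower became 3 without a filter on low values, 13 with scaling by library size alone, 10 with an adjusted p-value below 0.01 and 3 with a log2 fold change of at least 0.5. They were 18 with DESeq2, 19 with edgeR, 20 with limma-voom and 22 with TMM scaling. Leaving out 1 library gave 7 to 20. The 34 other ribosome biogenesis genes called lower became 6 without the filter, 21 by library size, 15 at the stricter p-value and 0 at the fold threshold, and 15 to 32 with 1 library left out. The 2 called higher became 1 with DESeq2 and 0 with the length trend taken out, without the filter, at the stricter p-value and at the fold threshold, and 0 to 2 with 1 library left out. With the length trend taken out the signs of FBL and NOP10 changed, to 0.0127 and 0.0076, neither called. The cause was not tested. Of the comparisons of single named genes with all libraries kept, 524 held their direction and side of the threshold, 92 lost and 9 gained a call, and with 1 library left out these numbers were 214, 51 and 5. Deviations from the group means correlated at -0.06, -0.02 and -0.05 between same-numbered libraries and at -0.005 to 0.05 between differently numbered ones. These values gave no sign that the replicate numbers pair the libraries, but they cannot show that the libraries were unpaired. With the replicate block 18 factors were called lower, without NOP2 and UTP14A, as were 11.4% of all genes tested.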
